A study of Mus musculus with 16 samples.

Results

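A set of 10 genes of the heat shock response was followed across primary hippocampal neurons cultured with apoE lipoproteins. They were taken by name, as chaperone genes under the control of the heat shock transcription factor HSF1 and *Hsf1* itself. The rule uses no measured value, but the genes were chosen with earlier results of these data known. All 10 were among the 48397 genes of the count files, and all 10 were among the 17038 genes with enough reads to be tested. The neurons came from newborn wild-type CD1 mice and were grown in Neurobasal medium with B-27, with AraC, an inhibitor of dividing cells, added at 3 days *in vitro* (DIV). At 10 and 13 DIV they received 10-fold concentrated medium conditioned by immortalized astrocytes, and RNA was taken at 17 DIV. The astrocytes derived from *APOE* targeted replacement mice homozygous for ε2, ε3 or ε4 (the apoE2, apoE3 and apoE4 groups) or from Apoe-/- mice (the control group, whose medium holds no human apoE). Each of the 4 groups had 4 libraries, numbered 1 to 4 in the labels. All groups thus shared the neurons' genotype, the AraC and an astrocyte-conditioned medium.

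The heat shock response keeps proteins folded. HSF1 is held inactive until misfolded proteins occupy the chaperones that bind it, and it then forms trimers that bind repeated GAA and TTC units (heat shock elements) upstream of chaperone genes. Small heat shock proteins hold unfolded clients, Hsp70 and its partners refold them or hand them to degradation, and Hsp90 completes the folding of kinases and receptors. Neurons are known for a weak induction of the inducible Hsp70 genes, and astrocytes for a strong one.

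The libraries held between 14087723 and 34248172 reads on single genes. Of all reads in the files, 38.4% to 73.7% fell on no single gene, and the mitochondrial leucyl-tRNA synthetase gene *Lars2* alone took from 0.359% to 15.02% of the gene counts. Library 4 of apoE2 and library 2 of apoE4 stood apart, with 38.4% and 38.6% of reads on no single gene against at least 51.4% elsewhere, and a *Lars2* share of 0.690% and 0.359% against at least 2.83%. All 8 neuronal markers were detected in each group, with a summed level of 2607 to 6571 CPM per library (CPM are counts scaled to a library of 1000000). The 7 astrocyte markers summed to 397 to 2142 CPM in the control neurons, 586 to 2103 with apoE2, 642 to 5073 with apoE3 and 570 to 4072 with apoE4, and none of them was at 0 in any group. Microglial markers summed to only 5.17 to 19.6 CPM. The RNA is that of a whole culture, so a gene's higher level in each cell and a larger share of cells that express it cannot be told apart.

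The promoters of 6 of the 10 genes were in the RefSeq promoter table for the GRCm38.p6 build, each reaching from 250 bases before the start site to 50 after it. *Cryab*, *Hsp90aa1*, *Hspa8* and *Hsf1* were not matched. The windows were searched on both strands for a 2-unit element, GAANNTTC or TTCNNGAA, and for a 3-unit element, GAANNTTCNNGAA or TTCNNGAANNTTC, which contains overlapping 2-unit ones. Of the 6, 5 held a 2-unit element, against 17% of the 27025 genes in the table. The sequences below are those of the genes whose levels are described first, with the element in capitals and read on the gene's own strand. Positions count from the start site as 1, with no base 0.
*Hspb1*, positions -117 to -110, chr5:135887792-135887819, plus strand: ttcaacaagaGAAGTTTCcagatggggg
*Hspb1*, positions -97 to -90, chr5:135887812-135887839, plus strand: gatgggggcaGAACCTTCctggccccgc
*Bag3*, positions 43 to 50, chr7:128523615-128523632, plus strand: gatgggaccaGAAGTTTC
*Hspa1a*, positions -104 to -97, chr17:34972243-34972270, minus strand: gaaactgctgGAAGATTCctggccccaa
*Hspa1b*, positions -104 to -97, chr17:34959325-34959352, minus strand: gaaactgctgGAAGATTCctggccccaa
*Hsph1*, positions 16 to 28 from the second of its start sites, chr5:149636283-149636305, minus strand: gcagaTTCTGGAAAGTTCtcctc

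The printed windows of *Hspa1a* and *Hspa1b* were identical, and their whole promoters of 300 bases differed at 4 positions (98.7% identity). *Hsph1* was the single gene of the 6 with a 3-unit element, which 0.662% of the genes in the table had. *Dnajb1* held neither element in the windows of its start sites. A match of letters is a description of the window and not a measured binding site.

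**Figure D1:**
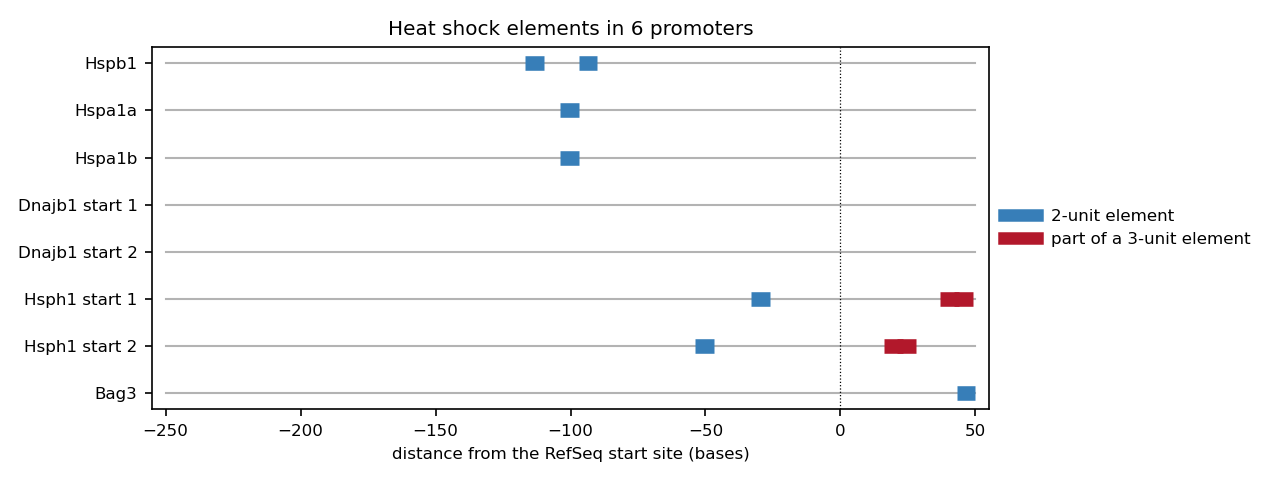
Positions of heat shock elements in the promoters of 6 heat shock genes, in bases from the RefSeq start site (x axis, from 250 before it to 50 after it), with 1 line per start site. Blue bars are 2-unit elements and red bars the parts of a 3-unit element. *Hspb1* has a pair of elements before the start, *Hspa1a* and *Hspa1b* share 1 position, *Bag3* has its element after the start, and *Dnajb1* has none.

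The 10 genes differed widely in abundance. Per kilobase of merged exons, the highest mean levels were those of *Hsp90aa1* at 195 ± 23.6 CPM per kb (SD, n = 16 libraries) and *Hspa8* at 192 ± 13.8, whose ranges overlapped. Both lay above the 99th percentile of the 16463 tested genes with a length. *Cryab* at 20.5 ± 14.1 and *Hsph1* at 20.1 ± 3.58 CPM per kb came next and did not differ beyond their spread. *Dnajb1* followed at 12.8 ± 1.02 and *Hspb1* at 8.20 ± 7.998, the latter ranging from 0.351 to 32.2 CPM per kb. *Hspa1b* was at 3.93 ± 0.712, *Hsf1* at 2.97 ± 0.214 and *Bag3* at 2.17 ± 1.75 CPM per kb, with ranges that overlapped. *Hspa1a* had the lowest mean, 0.944 ± 0.197, within the range of *Bag3* (0.220 to 5.99). The order of the means moved with the group, since in the control libraries *Bag3* (1.02) was below *Hspa1a* (1.04) and *Hspb1* (3.18) below *Hspa1b* (4.23), and with apoE3 *Hspb1* (14.1) was above *Dnajb1* (13.4). *Hsp90aa1* and *Hspa8* were thus abundant in all cultures. The inducible Hsp70 pair was near or below the middle of all tested genes (percentiles 52.3 for *Hspa1b* and 27.6 for *Hspa1a*). Of the 50-base windows of their transcripts, 62.3% for *Hspa1b* and 66.3% for *Hspa1a* also occur in other genes. Their levels and ranks thus depend on how such reads were assigned, and may be too low.

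**Figure D2:**
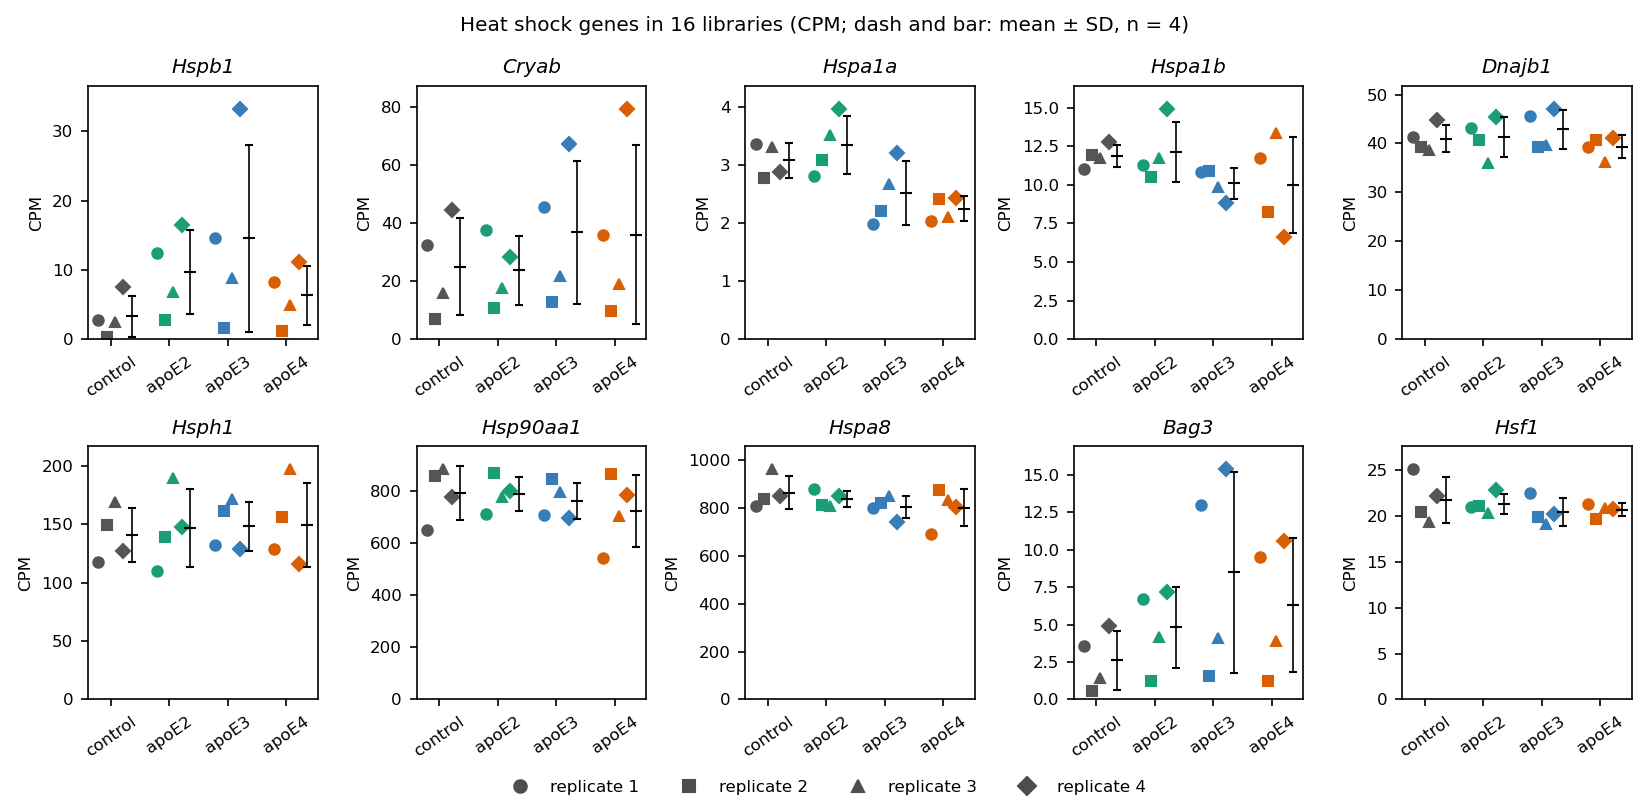
Level of each heat shock gene in CPM (y axis from 0) in the 16 libraries by group, with the marker shape giving the replicate number and the dash and bar the mean ± SD (n = 4). *Hspb1*, *Cryab* and *Bag3* spread many-fold within each group, with replicate 2 lowest and replicates 1 and 4 highest, while *Dnajb1*, *Hspa8* and *Hsf1* stay close to 1 level.

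The study asked how each apoE isoform changes neuronal gene expression, and each isoform was compared with control and with the other isoforms. The 3 comparisons with control use the same 4 control libraries. The main fit had no replicate term, since the study's methods name none. In it, none of the 10 genes was called at an adjusted p under 0.05 (edgeR's quasi-likelihood test, Benjamini-Hochberg over all tested genes) in any of the 6 comparisons. The share of all tested genes called was 0% for apoE2 against control, 0.00587% for apoE3, 0.194% for apoE4, 0.147% for apoE4 against apoE3, 0.252% for apoE4 against apoE2 and 0% for apoE3 against apoE2. At an unadjusted p under 0.05 the counts of heat shock genes were 0 of 10 for apoE2 (2.79% of all tested genes), 1 for apoE3 (6.43%), 1 for apoE4 (3.3%), 0 for apoE4 against apoE3 (4.7%), 1 for apoE4 against apoE2 (5.34%) and 0 for apoE3 against apoE2 (2.28%). Those were *Hspb1*, higher with apoE3, and *Hspa1a*, lower with apoE4 in both of its comparisons. *Hspb1* with apoE3 was also the one case that met the study's criterion of a fold change of at least 2 with p under 0.05.

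The picture changed when libraries of the same number were compared with each other. Libraries that share a number deviated together across all genes, least so for number 1. Once the number entered the same model as a blocking term, 2 of the 10 genes, *Hspb1* and *Bag3*, were called higher with every isoform. For apoE2 the background was 1.73% of tested genes called and 1.17% called higher, for apoE3 11.7% and 7.95%, and for apoE4 3.3% and 3.18%. Between isoforms, 1 gene was called for apoE4 against apoE3 (*Hspb1*, lower, against a background of 1.76%), 0 for apoE4 against apoE2 (4.44%) and 0 for apoE3 against apoE2 (1.31%). Tested over the 4 groups at once, 0 genes were called without the block (0.229% of all) and 2, *Hspb1* and *Bag3*, with it (10.7%). The study's thresholds were met in the blocked fit by *Hspb1* and *Bag3* with every isoform, and by *Hspb1* for apoE4 against apoE3. The median log2 fold change of the 10 genes in the blocked fit was 0.05 for apoE2, 0.01 for apoE3 and -0.06 for apoE4, beside 0.01, 0.02 and -0.002 over all tested genes.

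**Figure D3:**
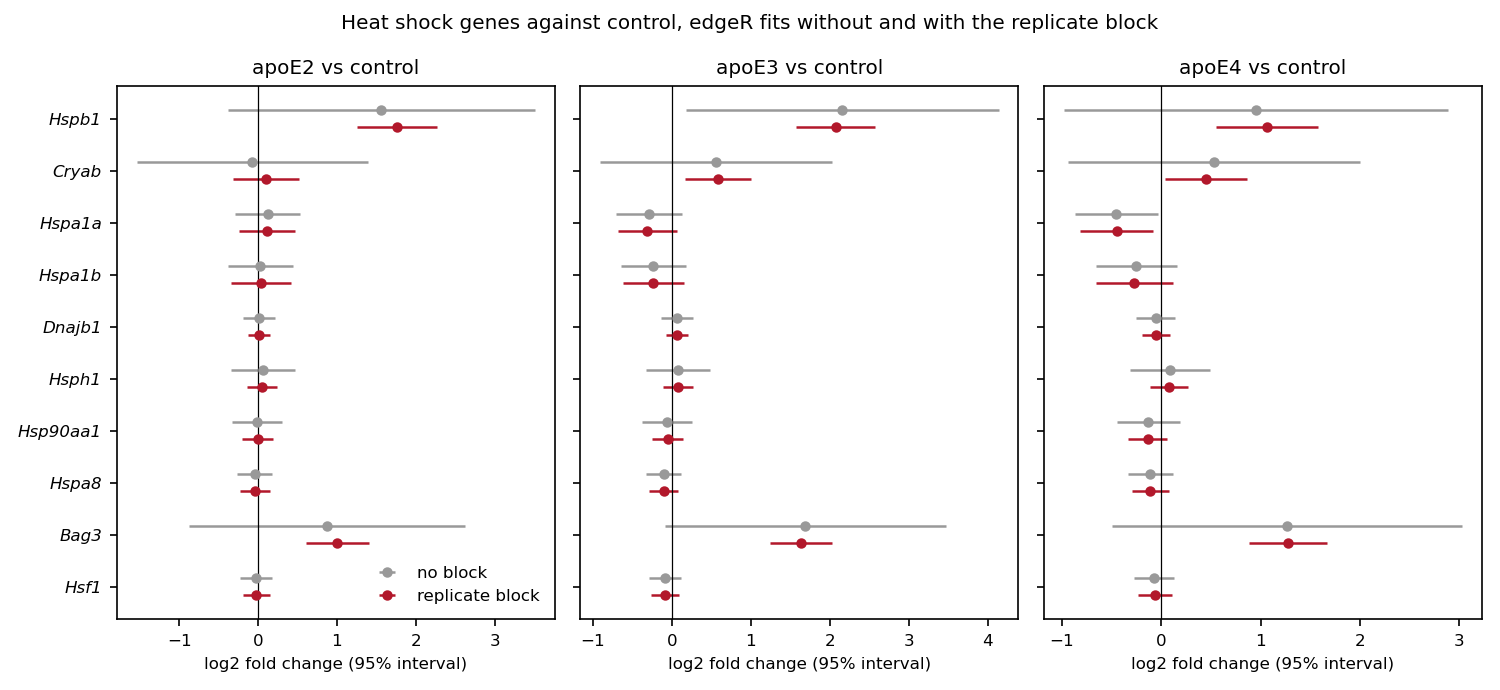
Log2 fold change of each heat shock gene against control (x axis; bars are 95% intervals) for apoE2, apoE3 and apoE4, in the edgeR fit without (grey) and with (red) the replicate block. The points of both fits lie close to each other beside the unblocked intervals, the sign of *Cryab* with apoE2 turns from -0.07 to 0.10, and the intervals of *Hspb1* and *Bag3* clear 0 in all 3 panels only with the block.

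*Hspb1* encodes Hsp25 (HSP27 in humans), a small heat shock protein that holds unfolded proteins and binds actin. It lies at chr5:135887919-135889563 on the plus strand (mm10, GENCODE M21), and 51.6% of the 50-base windows of its transcript also occur in *Hsp25-ps1*, a near copy, so that its counts depend on how such reads were assigned. In the control neurons *Hspb1* was at 2.77, 0.362, 2.48 and 7.49 CPM in libraries 1 to 4. In the apoE2 libraries it was at 12.5, 2.79, 6.78 and 16.5 CPM, in the apoE3 libraries at 14.6, 1.64, 8.76 and 33.2, and in the apoE4 libraries at 8.20, 1.17, 4.87 and 11.1. The groups overlapped, because library 2 was lowest and library 4 highest in each of them. Within a number the isoform libraries were above the control in all 12 cases, by 2.20 to 7.70 times with apoE2, 3.54 to 5.27 times with apoE3 and 1.48 to 3.23 times with apoE4.

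Without the block the log2 fold changes of *Hspb1* were 1.56 ± 0.91 (SE), 2.16 ± 0.93 and 0.95 ± 0.91 with apoE2, apoE3 and apoE4, at adjusted p of 1, 0.767 and 1.00. With the block they were 1.77 ± 0.24, 2.08 ± 0.23 and 1.06 ± 0.24, at adjusted p of 0.00294, 1.60e-04 and 0.0253. *Hspb1* was lower with apoE4 than with apoE3 in 4 of 4 numbers, at 0.334 to 0.713 of the apoE3 level, with a blocked log2 difference of -1.01 ± 0.22 (adjusted p = 0.0321) and an unblocked one of -1.20 ± 0.90 (adjusted p = 1.00). It was also lower with apoE4 than with apoE2 in 4 of 4 numbers, where the blocked difference of -0.70 ± 0.22 had an adjusted p of 0.0987 (0.0342 by DESeq2 with the block, and 0.0430 without apoE2 library 4). Between apoE3 and apoE2 the blocked difference was 0.31, with a 95% interval from -0.15 to 0.77.

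The blocked *Hspb1* call for apoE3 held when any 1 library, or all libraries of any 1 number, was left out (log2 fold change 1.85 to 2.25 over 23 alternatives). The call for apoE2 was lost only when all number 1 libraries were left out (adjusted p = 0.0775). The call for apoE4 was lost without control library 1 (adjusted p = 0.135), control library 3 (0.0533), apoE4 library 1 (0.0947) or apoE4 library 3 (0.0776), and without all libraries of number 1 (0.274) or 3 (0.148). That for apoE4 against apoE3 was lost without apoE3 library 1 (adjusted p = 0.116), 3 (0.0835) or 4 (0.105), or apoE4 library 1 (0.0692), 2 (0.0558), 3 (0.0911) or 4 (0.112), and without all libraries of number 1 (0.166), 3 (0.222) or 4 (0.0989). Of the libraries that stand apart, leaving out apoE2 library 4 gave a blocked *Hspb1* log2 fold change with apoE2 of 1.95 (adjusted p = 3.75e-04), and leaving out apoE4 library 2 gave 1.06 with apoE4 (adjusted p = 0.0443). The *Hspb1* level of control library 2 rests on 9 reads.

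*Bag3* encodes a co-chaperone that couples Hsp70 to selective autophagy and binds small heat shock proteins. It lies at chr7:128523616-128546981 on the plus strand and shares no 50-base window with another gene. Its levels were 3.55, 0.563, 1.47 and 4.92 CPM in the control libraries 1 to 4, 6.69, 1.26, 4.14 and 7.15 with apoE2, 12.9, 1.56, 4.08 and 15.4 with apoE3 and 9.49, 1.25, 3.93 and 10.6 with apoE4. The order of the libraries was the same as for *Hspb1*, the groups overlapped, and every isoform library was above the control library of its number.

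The ratio of *Bag3* to control within a number was 1.45 to 2.82 with apoE2, 2.76 to 3.65 with apoE3 and 2.15 to 2.68 with apoE4. With the block the log2 fold changes were 1.01 ± 0.19 (adjusted p = 0.0140), 1.63 ± 0.18 (1.59e-04) and 1.27 ± 0.18 (0.00107). Without it they were 0.88 ± 0.82, 1.69 ± 0.83 and 1.27 ± 0.82, at adjusted p of 1, 0.772 and 1.00. No pair of isoforms was called in this fit, with blocked log2 differences of -0.36 (95% interval -0.72 to 0.01) for apoE4 against apoE3, 0.27 (-0.11 to 0.64) for apoE4 against apoE2 and 0.63 (0.26 to 1.00, adjusted p = 0.0917) for apoE3 against apoE2. The last was called by DESeq2 with the block (0.63, adjusted p = 0.0299) and without apoE2 library 3 (0.81, adjusted p = 0.0433). The blocked calls for apoE3 and apoE4 held in all 23 alternatives. The call for apoE2 was lost without control library 1 (adjusted p = 0.0788) or 3 (0.0583), or apoE2 library 2 (0.0517) or 3 (0.0593), in the 2 groups alone (0.0610), and without all libraries of number 1 (0.139), 2 (0.0860) or 3 (0.145). Without apoE2 library 4 the *Bag3* value with apoE2 was 1.17 (adjusted p = 0.00254), and without apoE4 library 2 it was 1.30 with apoE4 (0.00248).

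*Cryab* encodes αB-crystallin, the other abundant small heat shock protein of glia and muscle, at chr9:50751325-50756636 on the plus strand, where 17.0% of its exon bases lie under *Hspb2* on the opposite strand. It was at 32.5, 7.04, 15.8 and 44.5 CPM in the control libraries, 37.7, 10.9, 17.8 and 28.4 with apoE2, 45.6, 12.7, 21.6 and 67.5 with apoE3, and 36.1, 9.63, 19.0 and 79.4 with apoE4. Library 2 was again lowest in every group. Within a number *Cryab* was above control in 3 of 4 cases with apoE2 and in 4 of 4 with apoE3 and apoE4, but by less than *Hspb1* or *Bag3* in most, at 1.37 to 1.80 times with apoE3 and 1.11 to 1.78 times with apoE4. It was not called over all 16 libraries in either edgeR fit. The blocked log2 fold changes were 0.10 (95% interval -0.31 to 0.52), 0.59 (0.17 to 1.00, adjusted p = 0.0627) and 0.45 (0.04 to 0.86, adjusted p = 0.256), so the data leave room for a *Cryab* change of up to 1.999-fold with apoE3 at the edge of that interval. The result with apoE3 lay near the threshold, since *Cryab* was called by DESeq2 with the block (0.58, adjusted p = 0.0354), in the blocked fit of the 2 groups alone (0.58, 0.00875), without apoE2 library 4 (0.57, 0.00344), without apoE4 library 4 (0.58, 0.0268) and without all number 4 libraries (0.57, 0.00600). Without apoE2 library 4 the *Cryab* value with apoE4 was called too (0.42, adjusted p = 0.0434), and that with apoE2, whose library 4 was the one below its control, was 0.36 (0.121).

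Astrocyte markers, like these 3 genes, were lowest in library 2 of every group, while the order of the other libraries differed in part. Library 2 had the lowest summed astrocyte level, 397 to 642 CPM, and library 4 the highest in 3 of the 4 groups, 2096 to 5073 CPM over all groups. Markers of endothelial, mural and fibroblast cells summed to 22.8 to 24.1 CPM in the number 2 libraries and to 139 to 381 CPM in number 4. Without the block, no marker of any cell type was called in any comparison. With the block, 0 of the 7 astrocyte markers were called with apoE2, 7 of 7 higher with apoE3 and 4 of 7 higher with apoE4. Of all tested genes, 1.17%, 7.95% and 3.18% were called higher with the block. All 7 markers had a positive fold change with each isoform. Within a number the astrocyte sum was 0.979 to 2.11 times control with apoE2, 1.62 to 3.25 times with apoE3 and 1.43 to 2.17 times with apoE4. The paper also counted cells stained for the astrocyte protein GFAP in cultures given the same treatments. It reports no significant difference between treatments in their share of all cells. Between apoE4 and apoE3, where *Hspb1* was lower in 4 of 4 numbers, the astrocyte sum was also lower in 4 of 4, at 0.668 to 0.945 of the apoE3 level, with none of its 7 markers called. The oligodendrocyte lineage sum was lower in 4 of 4 as well (0.584 to 0.958), and in this comparison 1 oligodendrocyte lineage and 1 dividing cell marker were called lower and 1 neuronal marker higher with the block. Between apoE4 and apoE2 the astrocyte sum was at 0.973 to 1.94 times the apoE2 level.

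The 4 markers of dividing cells also moved with the groups. Their sum was low, at 6.40 to 39.9 CPM per library, and above control in 4 of 4 numbers with every isoform, by 1.62 to 3.03 times with apoE2, 2.03 to 6.23 times with apoE3 and 1.23 to 2.10 times with apoE4, and it was lower with apoE4 than with apoE3 in 4 of 4 (0.283 to 0.775). With the block 1, 1 and 0 of these 4 markers were called higher with apoE2, apoE3 and apoE4. The 6 oligodendrocyte lineage markers summed to 0.699 to 2.01, 1.27 to 2.19 and 1.02 to 1.69 times control, with 0, 2 and 1 called higher. For markers of endothelial, mural and fibroblast cells the ratios were 0.725 to 2.09, 1.05 to 1.99 and 0.989 to 1.88, with none of the 7 tested called in these comparisons. Summed neuronal markers were 0.972 to 1.097, 0.717 to 0.999 and 0.825 to 1.07 times control. Of the 8 markers, 1 was called higher and 2 lower with apoE3 in the blocked fit, and none with apoE2 or apoE4. The part of these cells in the *Hspb1* and *Bag3* differences was not tested.

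**Figure D4:**
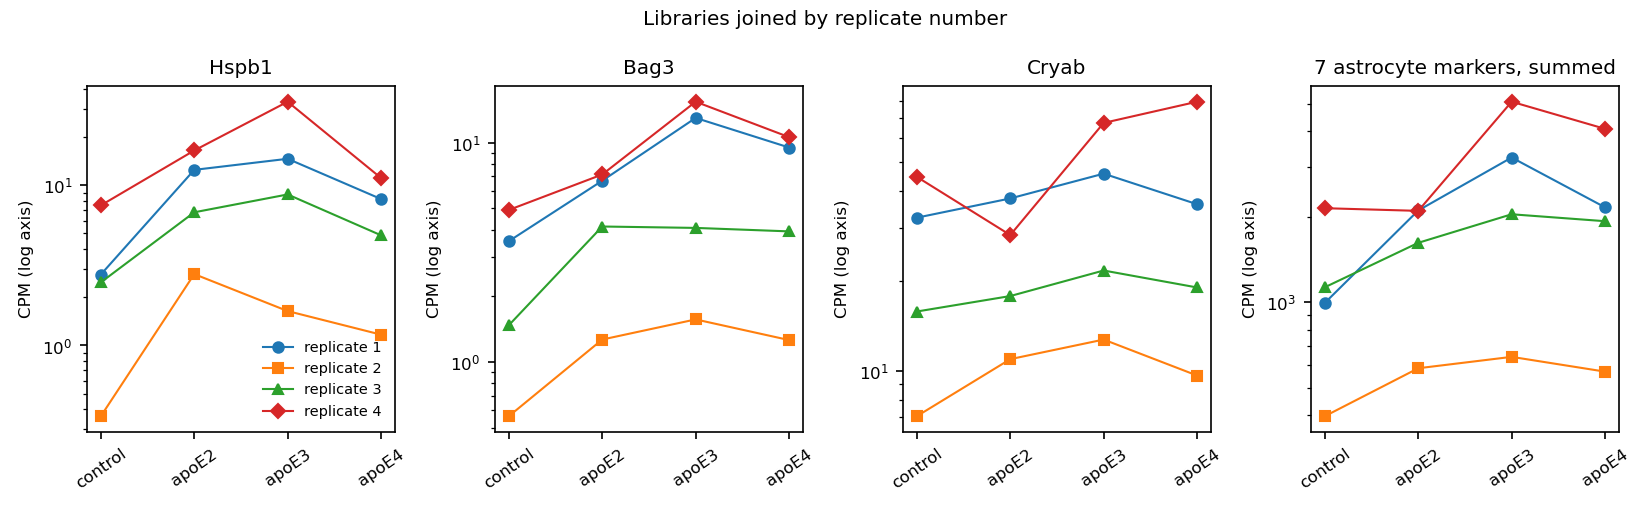
Levels of *Hspb1*, *Bag3*, *Cryab* and the sum of 7 astrocyte markers (y axes, CPM, log scale) in the 4 groups, with libraries of the same number joined by a line. The lines of *Hspb1* and *Bag3* all start lowest at control and keep apart by number, and the astrocyte sum has its lowest line in replicate 2 as well.

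*Hspa1a* and *Hspa1b* encode the same stress-inducible Hsp70 and lie side by side on chromosome 17, at chr17:34969190-34972156 and chr17:34956436-34959238, both on the minus strand. They share 58.8% and 62.3% of their 50-base windows with each other, so the division of reads between them is uncertain, and 19.0% of the *Hspa1a* exon lies under *Gm20481* on the opposite strand. *Hspa1a* was at 3.36, 2.78, 3.32 and 2.88 CPM in the control libraries, 2.82, 3.10, 3.52 and 3.97 with apoE2, 1.98, 2.21, 2.67 and 3.22 with apoE3, and 2.03, 2.42, 2.10 and 2.44 with apoE4. All 4 apoE4 libraries lay below all control and all apoE2 libraries.

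The *Hspa1a* log2 difference was -0.45 ± 0.20 for apoE4 against control (adjusted p = 1.00) and -0.57 ± 0.20 for apoE4 against apoE2 (adjusted p = 0.525). With the block they were -0.45 ± 0.17 (adjusted p = 0.204) and -0.56 ± 0.17 (adjusted p = 0.0863), so that neither was called in these fits. DESeq2 with the block called the difference between apoE4 and apoE2 (-0.56, adjusted p = 0.0486), and without apoE2 library 4 the blocked edgeR value was -0.52 (adjusted p = 0.2096). *Hspa1b* did not follow it closely. It was at 11.002, 11.9, 11.8 and 12.8 CPM in the control libraries and at 11.7, 8.24, 13.3 and 6.61 with apoE4, which overlapped, and its log2 difference was -0.25 (95% interval -0.66 to 0.16). When the reads of both genes were summed, the difference was -0.29 ± 0.15 for apoE4 against control (adjusted p = 1.00) and -0.34 ± 0.15 against apoE2 (adjusted p = 0.906). The inducible Hsp70 genes thus showed no called change against control, and their point estimates with apoE3 and apoE4 had the opposite sign to those of *Hspb1* and *Bag3*.

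No change was called for *Dnajb1* or *Hsph1*, which act on the Hsp70 cycle. *Dnajb1* (chr8:83608193-83612653, plus strand), the Hsp40 that stimulates the Hsp70 ATPase, stayed between 36.0 and 47.0 CPM in all libraries, with log2 fold changes of 0.01 (95% interval -0.19 to 0.21), 0.06 (-0.14 to 0.27) and -0.06 (-0.26 to 0.14) against control. *Hsph1* (chr5:149614287-149636376, minus strand), an Hsp110 that exchanges the nucleotide of Hsp70, ranged from 110.0 to 197 CPM. Its group means were 141 ± 22.9, 147 ± 33.0, 148 ± 20.9 and 149 ± 35.8 CPM (SD, n = 4) in control, apoE2, apoE3 and apoE4. Its log2 fold changes were at most 0.09, with 95% intervals inside -0.34 to 0.49. For *Dnajb1* and *Hsph1* these intervals leave room for changes of less than 1.5-fold.

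*Hspa8* (chr9:40800984-40810087, plus strand), the constitutive Hsc70, had group means of 863 ± 67.4, 837 ± 34.0, 802 ± 46.6 and 800.0 ± 78.0 CPM in control, apoE2, apoE3 and apoE4. *Hsp90aa1* (chr12:110690605-110702728, minus strand), the inducible Hsp90, had 792 ± 105, 788 ± 64.7, 761 ± 70.7 and 723 ± 137 CPM. The groups overlapped for both genes, and the log2 fold changes lay between -0.13 and -0.01, with 95% intervals inside -0.45 to 0.31. Both share many windows with other genes, 74.8% for *Hspa8* (mostly *Gm15459*) and 58.5% for *Hsp90aa1* (mostly *Gm12346*), and 6.1% of the *Hspa8* exon bases hold small nucleolar RNA genes on the same strand.

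*Hsf1* itself (chr15:76477422-76501913, plus strand) varied little between groups, with 21.7 ± 2.52, 21.3 ± 1.06, 20.4 ± 1.48 and 20.7 ± 0.706 CPM and all 16 libraries between 19.1 and 25.1. Its log2 fold changes were -0.03, -0.09 and -0.07, with 95% intervals inside -0.29 to 0.18. HSF1 is activated at the level of the protein, so its transcript is no measure of its activity.

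For 6 of the 10 genes most of the variation lay between replicate numbers. Replicate number held 69.9% of the sum of squares of log2 CPM for *Hspb1*, 78.2% for *Bag3*, 87.5% for *Cryab* and 82.2% for *Hsph1*, against a median of 56.1% over all tested genes. The group held 26.9%, 19.9%, 6.08% and 1.59% for the same genes, against a median of 14.4%. *Dnajb1* (68.1%) and *Hsp90aa1* (65.8%) also varied mostly between numbers, and *Hsf1* had 49.0% there. *Hspa1a* was the reverse, with 60.9% between groups and 16.3% between numbers. *Hspa1b* and *Hspa8* varied mostly in neither way, with residual shares of 65.1% and 59.4%. In the edgeR F test of replicate numbers 6 of the 10 genes were called (*Hspb1*, *Bag3*, *Cryab*, *Hsph1*, *Dnajb1* and *Hsp90aa1*), against 63.8% of all tested genes. *Hsph1* had its own order, highest in number 3 (169 to 197 CPM) in every group and lower in numbers 1 (110.0 to 132) and 4 (116 to 148), unlike the small heat shock genes.

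**Figure D5:**
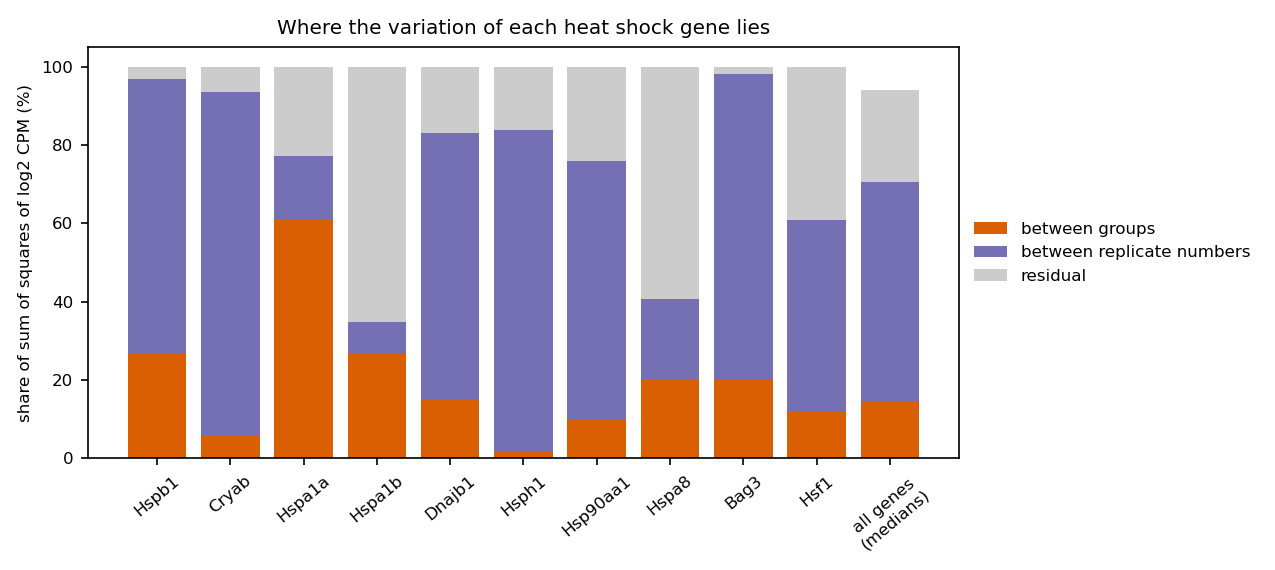
Share (%) of the sum of squares of log2 CPM over 16 libraries that lies between groups (orange), between replicate numbers (purple) and in the residual (grey), for each heat shock gene and, as separate medians that need not add to 100, for all tested genes. Replicate number takes 69.9% for *Hspb1* and 78.2% for *Bag3*, and the groups take 60.9% for *Hspa1a*.

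After subtraction of each number's mean, *Hspb1* and *Bag3* ran together over the 16 libraries (r = 0.846), as did *Hsp90aa1* and *Hspa8* (r = 0.856), while *Cryab* and *Hspa1b* ran in opposite directions (r = -0.775). *Hspa1a* and *Hspa1b* had an r of 0.302. These correlations describe libraries that share depth, culture and group differences. The genes most like *Hspb1* by this measure among 11479 genes were *9430020K01Rik* (r = 0.942), *Sulf1* (0.941) and *Nupr1* (0.933). For *Hspa1b* they were *Ube2ql1* (r = 0.922), *Isca1* (0.904) and *Rxfp3* (0.881), and for *Hsp90aa1* they were *Slc30a9* (r = 0.945), *Ssb* (0.935) and *Emc7* (0.928). *Bag3* ranked 124th of 17037 tested genes in likeness to *Hspb1*.

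Other chaperone genes were followed in 4 lists: 18 further HSF1-responsive genes, 23 constitutive cytosolic chaperones, 15 of the endoplasmic reticulum and mitochondria, and 11 HSF family members and small heat shock proteins. Of the 67 genes 64 were tested, and none was called in the 6 comparisons without the block. With it, 0 were called for apoE2 against control, 5 higher and 1 lower for apoE3, 1 higher for apoE4, 1 lower for apoE4 against apoE3, 2 lower for apoE4 against apoE2, and 0 for apoE3 against apoE2. The shares of all tested genes called in these comparisons were 1.73%, 11.7%, 3.3%, 1.76%, 4.44% and 1.31%, so that 6 of 64 with apoE3 and 1 of 64 with apoE4 did not exceed them. Their median blocked log2 fold changes were 0.03, 0.02 and -0.04 against control with apoE2, apoE3 and apoE4.

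*Dnajb4*, a stress-inducible Hsp40, was at 68.4, 69.7, 98.4 and 82.5 CPM in the control libraries, at 86.2, 78.9, 136 and 98.3 with apoE2, at 118, 94.0, 182 and 109 with apoE3 and at 60.1, 75.3, 92.4 and 80.2 with apoE4. With the block its log2 fold change was 0.63 ± 0.10 for apoE3 against control (adjusted p = 0.00149, higher in 4 of 4 numbers), 0.31 ± 0.10 for apoE2 against control (adjusted p = 0.141, higher in 4 of 4 and not called) and -0.68 ± 0.10 for apoE4 against apoE3 (adjusted p = 0.00265, lower in 4 of 4). *Hspa12a*, a distant Hsp70 relative of the brain, was lower with apoE3 in 4 of 4 numbers, with a blocked log2 fold change of -0.48 ± 0.11 (adjusted p = 0.0138). With apoE2 it was also lower in 4 of 4, with -0.39 ± 0.11 (adjusted p = 0.0973), which was not called. For both genes the apoE3 and control libraries overlapped.

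*Ptges3*, the p23 co-chaperone of Hsp90, had 88.9 ± 14.3 CPM in control, 100.4 ± 2.498 with apoE2, 105 ± 2.09 with apoE3 and 87.7 ± 8.14 with apoE4. *Hspd1*, the mitochondrial Hsp60, had 160 ± 14.2, 172 ± 13.2, 165 ± 5.91 and 148 ± 13.0 CPM. *Dnajb9* of the endoplasmic reticulum had group means of 25.0 to 29.4 CPM, the mitochondrial protease *Clpp* 39.6 to 43.5, *Hsf2* 41.3 to 47.8 and the small heat shock gene *Hspb3* 0.470 to 1.32. None of these 6 genes was called in either fit.

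The other genes called with the block were named after their values were seen. *Hspb8*, the small heat shock protein that binds BAG3, was at 18.0, 6.32, 10.1 and 37.9 CPM in the control libraries, 38.9, 8.52, 14.2 and 37.9 with apoE2, 65.3, 8.28, 23.9 and 112 with apoE3, and 47.4, 9.26, 25.2 and 109 with apoE4. As for *Hspb1* and *Bag3*, library 2 was lowest in every group. Its blocked log2 fold changes were 1.32 ± 0.22 with apoE3 (adjusted p = 0.00194) and 1.23 ± 0.22 with apoE4 (0.00462), with 4 of 4 numbers higher for both. The ratios of *Hspb8* to control were 3.62, 1.31, 2.38 and 2.95 in numbers 1 to 4 with apoE3, beside 3.25, 1.62, 1.81 and 2.37 for the astrocyte marker sum. With apoE4 the ratios were 1.47 to 2.89 for *Hspb8* and 1.43 to 2.17 for the astrocyte marker sum, whose part in the *Hspb8* differences was not tested. *Serpinh1*, the collagen chaperone HSP47, had 0.72 ± 0.19 with apoE3 (adjusted p = 0.0271), *Bag2* 0.42 ± 0.11 (0.0275) and *Dnajc3* 0.41 ± 0.12 (0.0421). *Dnaja1* and *Dnajb5* were lower with apoE4 than with apoE2, by log2 differences of -0.24 ± 0.06 (adjusted p = 0.0356) and -0.44 ± 0.12 (0.0461).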

How the data were processed

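RNA of 16 cultures was depleted of ribosomal RNA, made into TruSeq libraries and sequenced on a NovaSeq. Per the labels and the study's methods, the authors aligned reads to mm10 with STAR and deposited raw counts per gene from HTSeq, 1 file per library. The annotation and the use of strand are not given in the sources used here. Rows that name no gene were left out of library sizes. Depth was 14087723 to 34248172 gene counts per library. Each library is from a culture of its own, by the study's methods, so p-values without the block measure the spread between cultures. With the block they measure the spread left after differences between replicate numbers.

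From the counts, edgeR 4.0.16 in R 4.3.3 compared the groups without a block. It used TMM scaling, filterByExpr with a minimum count of 10, the quasi-likelihood test, 1 coefficient per group and Benjamini-Hochberg over 17038 genes. The study's methods name no block, and its test of single genes was Student's t-test. Levels are TMM-scaled CPM. Whether the replicate numbers pair the libraries was checked on deviations from group means in log2 CPM. All 24 same-number pairs correlated, at r of 0.362 to 0.831, against -0.736 to 0.569 for different numbers. The number 1 pairs (0.362 to 0.552) lay inside the range of different numbers. Pairs of numbers 2 to 4 (0.620 to 0.831) lay above it. The labels do not say what a number marks. The fit with the number as a block is therefore given beside the main one. It lowered the common dispersion from 0.132 to 0.0178.

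The genes, lists and alternatives were chosen with earlier results of these data known. All 10 heat shock genes are named, and of each other chaperone list the genes called without the block and the 2 with the smallest p over the 4 groups, unless stated. DESeq2 1.42.0 served as an alternative. Promoter sequences are from RefSeq (GRCm38.p6), gene positions, exon lengths and shared windows from GENCODE M21.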

Additional observations from a re-analysis of the deposited data

How the results depend on the processing

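Without the block, none of the 10 heat shock genes was called in any comparison under DESeq2 size factors, no or a stricter low-count filter, DESeq2's test, the 2 groups alone, or any 1 library left out (1266 values, smallest adjusted p 0.144). The replicate block raised the counts of called genes from 0 to 2, 2 and 2 for apoE2, apoE3 and apoE4 against control, to 1 for apoE4 against apoE3 and to 2 over the 4 groups, and changed no other count of calls between groups. The count for replicate numbers stayed at 5 to 6.

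With the block (alternatives chosen after the values were seen), *Hspb1* and *Bag3* stayed called for apoE3 in all 23 alternatives, and *Cryab* was called beside them in 5 (2 to 3 genes). For apoE2, 1 gene was called with the 2 groups alone, 0 without number 1 of every group, 1 without number 2 and 1 without number 3, where the adjusted p was 0.0775 for *Hspb1* without number 1 and 0.0860 to 0.145 for *Bag3*, and 1 to 2 without any 1 library. For apoE4, 1 was called without number 1 and 1 without number 3, and 1 to 3 without any 1 library (*Cryab* being the third, without apoE2 library 4). For apoE4 against apoE3, 0 were called without number 1, 3 or 4, and 0 to 1 without any 1 library. DESeq2 with the block called 2 genes for apoE4 against apoE2 (*Hspb1* and *Hspa1a*) and 1 for apoE3 against apoE2 (*Bag3*), and leaving out any 1 library gave 0 to 1 in both (*Hspb1* without apoE2 library 4, *Bag3* without apoE2 library 3). The cause was not tested.

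Signs of uncalled fold changes near 0 turned as follows (log2). For apoE2 against control, *Dnajb1* gave -0.0027 with DESeq2 size factors, -0.0018 with the stricter filter and -8e-04 with DESeq2, and *Cryab* 0.10 with the block. For apoE4 against apoE3, *Hspa8* gave 7e-04, 0.0045, 0.0012 and 8e-04 with DESeq2 size factors, no filter, the stricter filter and DESeq2, and *Hsph1* -0.0068 with the block.

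Leaving out 1 library without the block gave these ranges across 0. For apoE2 against control they were *Cryab* -0.39 to 0.36, *Hspa1b* -0.088 to 0.080, *Dnajb1* -0.041 to 0.060, *Hsph1* -0.10 to 0.18, *Hsp90aa1* -0.099 to 0.050, *Hspa8* -0.085 to 0.012 and *Hsf1* -0.081 to 0.040. For apoE3 against control *Hsph1* ranged from -0.0095 to 0.17, and for apoE4 *Cryab* from -0.22 to 0.97 and *Hsph1* from -0.074 to 0.19. For apoE4 against apoE3 they were *Cryab* -0.77 to 0.43, *Hspa1b* -0.19 to 0.14, *Hsph1* -0.15 to 0.12, *Hsp90aa1* -0.17 to 0.043, *Hspa8* -0.050 to 0.060, *Bag3* -0.79 to 0.032 and *Hsf1* -0.013 to 0.066. For apoE4 against apoE2 they were *Cryab* -0.14 to 0.92 and *Hsph1* -0.13 to 0.18, and for apoE3 against apoE2 *Hspb1* -0.21 to 0.98, *Dnajb1* -0.0043 to 0.094, *Hsph1* -0.096 to 0.17 and *Hsp90aa1* -0.10 to 0.0043. Without 1 library its group is left with 3. Low counts limit *Hspb1*, *Bag3* and *Hspa1a* most, and shared windows *Hspa1a*, *Hspa1b*, *Hspa8*, *Hsp90aa1* and *Hspb1*.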
